A study of Mus musculus with 24 samples.

Results

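Iron handling was described through 9 genes of uptake, storage, export and heme breakdown in mouse bone marrow B cells. The genes are Tfrc, Slc11a2, Fth1, Ftl1, Slc40a1, Hmox1, Hmox2, Aco1 and Ireb2. They were chosen by name, all 9 stood among the 24421 genes of the count table, and all 9 were among the 12850 genes with enough counts to be tested. RNA was sequenced from 3 sorted populations of 8 mice, pro-B and pre-B cells sorted together (labelled proBpreB), immature B cells and mature B cells, each mouse giving 1 library per population. Of these mice, 4 were VHL flox/flox and 4 VHL flox/WT, and all 8 were MB1 Cre +/WT, so the controls carried the recombinase as well as 1 floxed allele. MB1 Cre drives recombination in the B lineage, and Vhl is the part of a ubiquitin ligase that recognises hypoxia-inducible factor (HIF) and so leads to its degradation. The sources used here give neither the age of the mice nor the surface markers of the gates. The design asks how the genes differ between genotypes within a population, between populations within a genotype, and whether the genotype difference changes between populations.

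Cells take up iron bound to transferrin through the transferrin receptor, and the metal then leaves the endosome through a divalent metal transporter. Iron that is not used is stored in ferritin, a shell of heavy and light chains, or leaves the cell through ferroportin. Heme oxygenases open the heme ring and release its iron. Iron regulatory proteins bind a hairpin called the iron-responsive element when iron is scarce. Bound in the 3′ untranslated region (UTR) they stabilise a transcript, and bound in the 5′ UTR they block its translation, so that uptake and storage are set in opposite directions. HIF is known to induce transferrin receptor and heme oxygenase transcription in several cell types.

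The hairpins are shown because Aco1 and Ireb2 encode the proteins that bind them. A search of UTR sequences (GENCODE M21 transcripts, build GRCm38) took 27 bases holding a bulged C, 5 stem bases, a loop of CAGTGN and 5 facing stem bases, of which at least 4 had to pair. It found 8 sites in 5 of the 9 genes. A site in any coding transcript of a gene was enough, while the levels below are per gene symbol. They do not separate transcripts with a site from transcripts without. Capitals mark the 6 loop bases, sequences are written 5′ to 3′ on the gene's strand, and T stands for U.
Tfrc 3′ UTR, site 1, chr16:32631220-32631246, plus strand: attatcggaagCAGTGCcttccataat
Tfrc 3′ UTR, site 2, chr16:32631599-32631625, plus strand: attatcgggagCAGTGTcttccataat
Tfrc 3′ UTR, site 3, chr16:32631664-32631690, plus strand: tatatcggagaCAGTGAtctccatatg
Tfrc 3′ UTR, site 4, chr16:32631711-32631737, plus strand: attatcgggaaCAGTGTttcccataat
Slc11a2 3′ UTR, chr15:100395154-100395180, minus strand: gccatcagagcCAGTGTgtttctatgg
Fth1 5′ UTR, chr19:9982733-9982759, plus strand: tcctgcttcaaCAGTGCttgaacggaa
Ftl1 5′ UTR, chr7:45459780-45459806, minus strand: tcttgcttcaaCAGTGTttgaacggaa
Slc40a1 5′ UTR, chr1:45925466-45925492, minus strand: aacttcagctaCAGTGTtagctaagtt
Of the 8 sites, 7 paired at all 5 stem positions and the Slc11a2 site at 4. The same pattern was found in the 5′ UTR of 175 of 20544 genes (0.852%) and in the 3′ UTR of 858 of 20920 genes (4.1%). Hmox1, Hmox2, Aco1 and Ireb2 held no such letters in their UTRs. A match is a description of the letters and not a measurement of binding.

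Libraries held between 7850186 and 11863949 counts. Levels are given as CPM, counts as a share of a library size that was adjusted by the trimmed mean of M-values (TMM), and 3 counts corresponded to 0.253 to 0.382 CPM. Vhl was lower in every flox/flox library than in every flox/WT library of its population, with differences in mean log2(CPM + 0.5) of -1.32, -2.62 and -1.90 in proBpreB, immature and mature cells (two-sided exact permutation p = 0.0286 for each, the lowest value possible with 4 libraries per group). The sources used here do not say where the lox sites lie. All 6 B lineage markers were detected in every group. The 8 markers of pro-B and pre-B cells summed to 2306 to 3688 CPM in proBpreB flox/WT libraries and to 145 to 245 CPM in mature ones, and the 8 markers of mature B cells rose from 996 to 1259 CPM to 12143 to 13355 CPM. Markers of other cell types were present too. Stage markers also differed between genotypes, and both kinds are given with the genotype results below. In sorted bulk samples fewer cells of a type and less RNA per cell cannot be told apart.

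Per kilobase of transcript, the ferritin chains stood far above the other genes. In proBpreB flox/WT libraries the level was 1227 ± 63.6 CPM per kb for Ftl1 and 1219 ± 94.5 for Fth1 (SD, n = 4), and these neighbours did not differ beyond their spread. Hmox2 followed with 62.7 ± 5.2 and Tfrc with 54.3 ± 7.0 CPM per kb, again overlapping within their SDs. Slc11a2 measured 15.1 ± 2.4 and Ireb2 11.2 ± 0.94 CPM per kb, and Slc40a1, Aco1 and Hmox1 lay together at 6.66 ± 1.3, 6.40 ± 0.55 and 6.25 ± 1.3. In mature flox/WT libraries Fth1 led with 2896 ± 448 CPM per kb over Ftl1 with 1929 ± 161. Hmox1 and Slc40a1 had moved up to 23.0 ± 5.4 and 22.8 ± 2.8 CPM per kb, above Tfrc at 7.5 ± 2.8 and Slc11a2 at 5.76 ± 0.60.

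**Figure D1:**
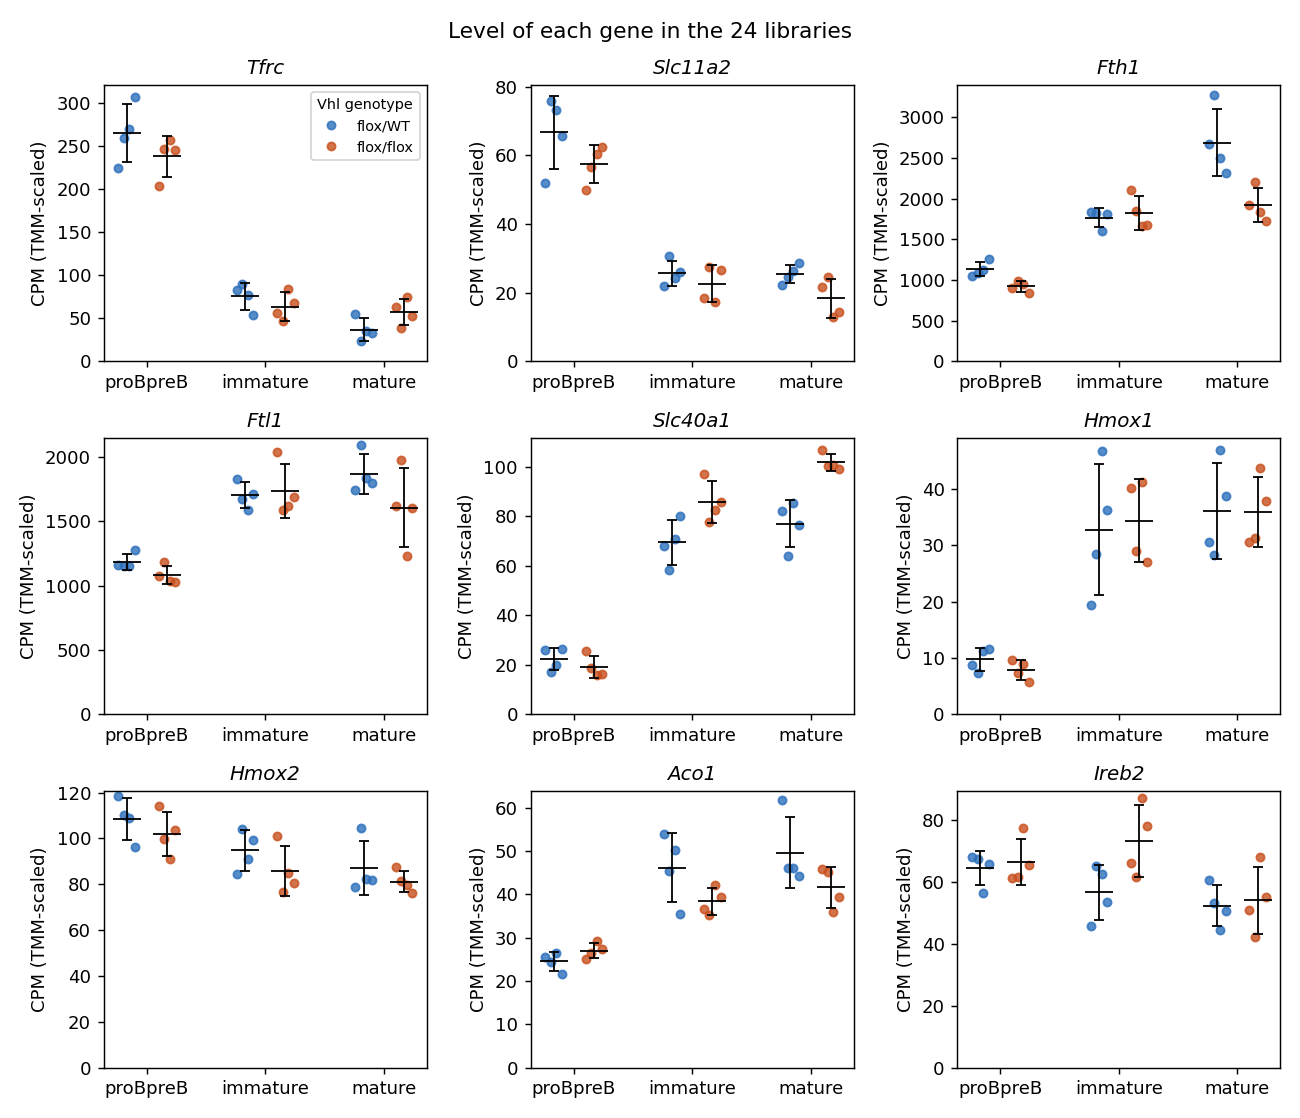
CPM of each gene (vertical axes, from 0, scaled separately per panel) in the 24 libraries by population, flox/WT in blue and flox/flox in orange; black bars are the group mean and SD of 4 mice. Tfrc and Slc11a2 are highest in proBpreB cells, while Fth1, Ftl1, Slc40a1, Hmox1 and Aco1 are lowest there.

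From proBpreB to immature cells the uptake genes fell and the storage and export genes rose, in mice of both genotypes. In flox/WT mice 7 of the 9 genes were called at an adjusted p under 0.05 (edgeR quasi-likelihood test, Benjamini-Hochberg over all genes), 5 higher and 2 lower, in a comparison that called 49.4% of all genes, 24.0% higher and 25.4% lower. In flox/flox mice the count was again 7 of 9, with 5 higher and 2 lower, beside 55.9% of all genes, 28.7% higher and 27.2% lower. The median log2 fold change of the 9 genes was 0.52 and 0.51, against -0.004 and 0.022 over all genes tested. Hmox2 and Ireb2 were not called in either genotype. Within a genotype, the comparisons of immature and of mature with proBpreB cells share the proBpreB libraries, so they are not independent of each other.

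Tfrc, the transferrin receptor, lies on chromosome 16 at 32608920 to 32632794 (GRCm38, plus strand). In proBpreB flox/WT libraries 1 to 4 it measured 225, 260, 270 and 307 CPM, in immature ones 83.1, 89.5, 77.0 and 53.6 CPM and in mature ones 55.5, 23.3, 35.1 and 32.9 CPM. Every proBpreB library stood above every later one, and the highest mature library lay just above the lowest immature one. The fall to immature cells was -1.81 on the log2 scale (SE 0.22, adjusted p = 1.49e-07) and the further fall to mature cells -1.04 (SE 0.22, adjusted p = 0.00058). In flox/flox mice the proBpreB values were 204, 247, 257 and 245 CPM, the immature values 55.8, 46.5, 84.5 and 67.9 CPM and the mature values 63.5, 38.7, 74.3 and 53.1 CPM. The first step was of like size, -1.90 (SE 0.22, adjusted p = 5.62e-08), and the second was -0.15 (95% interval -0.61 to 0.31, adjusted p = 0.66).

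The levels of Tfrc moved beside those of the 12 proliferation markers across populations. These markers summed to 3509 to 4716 CPM in proBpreB flox/WT libraries, 1763 to 2392 CPM in immature and 352 to 595 CPM in mature ones, and 11 of 12 fell at the first step and 12 of 12 at the second. In flox/flox mice they summed to 3898 to 4670, 554 to 737 and 574 to 783 CPM, with 12 of 12 lower at the first step and 0 called at the second by edgeR or DESeq2, 0 of them at an unadjusted p under 0.05. The 3 genes most like Tfrc over the 24 libraries were Ints8 (Pearson r 0.962), the ubiquitin ligase subunit Skp2 (0.961) and the transcription factor Myb (0.960), a description over libraries that share their populations. The part of cycling cells in the level of Tfrc was not tested.

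Slc11a2, the divalent metal transporter of the endosome, lies on chromosome 15 at 100387898 to 100425072 (minus strand), where Gm5475 overlaps it on the other strand. Its flox/WT values were 52.1, 75.7, 73.2 and 65.8 CPM in proBpreB cells, 21.8, 30.6, 24.1 and 25.9 CPM in immature cells and 22.3, 24.5, 26.4 and 28.6 CPM in mature cells. The drop was complete by the immature population and the immature and mature libraries overlapped. The first step measured -1.38 (SE 0.18, adjusted p = 2.14e-07) in flox/WT and -1.35 (SE 0.18, adjusted p = 3.02e-07) in flox/flox mice. The second step measured -0.01 (95% interval -0.39 to 0.37) and -0.30 (-0.69 to 0.09), neither of them called. Tcirg1 (r 0.960), Homer3 (0.950) and Scap (0.937) had the most similar pattern.

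Fth1, the ferritin heavy chain that oxidises iron on entry, lies on chromosome 19 at 9980598 to 9985098 (plus strand). In flox/WT mice it measured 1055, 1091, 1129 and 1257 CPM in proBpreB, 1831, 1825, 1599 and 1816 CPM in immature and 2668, 3276, 2500 and 2316 CPM in mature cells. The 3 populations did not overlap, and both steps were called, with 0.64 (SE 0.11, adjusted p = 1.79e-05) and 0.61 (SE 0.11, adjusted p = 7.23e-05) on the log2 scale. In flox/flox mice it measured 905, 988, 955 and 840 CPM in proBpreB, 2103, 1852, 1659 and 1677 CPM in immature and 1923, 2209, 1839 and 1726 CPM in mature cells. There the first step was 0.98 (SE 0.11, adjusted p = 1.45e-08), and the second 0.08 (95% interval -0.15 to 0.31, adjusted p = 0.648). Psen2 (r 0.983), Lactb (0.975) and AB124611 (0.973) were most like it.

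Ftl1, the ferritin light chain, lies on chromosome 7 at 45457944 to 45459884 (minus strand) and overlaps Gm22133 and Gm10252. It ranged from 1156 to 1281 CPM in proBpreB, 1591 to 1832 CPM in immature and 1743 to 2093 CPM in mature flox/WT libraries, and from 1031 to 1183, 1585 to 2041 and 1232 to 1976 CPM in flox/flox ones. The proBpreB libraries lay below all others in both genotypes. It rose at the first step by 0.52 (SE 0.11, adjusted p = 0.000344) in flox/WT and by 0.68 (SE 0.11, adjusted p = 9.27e-06) in flox/flox mice. At the second step it measured 0.13 and -0.11, neither of them called. Both ferritin chains have near-identical copies elsewhere in the genome, and the sources used here do not say how their shared reads were counted. Myl12b (r 0.961), Limd2 (0.944) and Glmp (0.934) were most like Ftl1.

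Slc40a1, ferroportin, the iron exporter of the cell surface, lies on chromosome 1 at 45908068 to 45926523 (minus strand). Its flox/WT values were 25.9, 17.2, 20.1 and 26.5 CPM in proBpreB, 68.1, 58.3, 71.0 and 80.2 CPM in immature and 82.1, 63.8, 85.5 and 76.5 CPM in mature cells. In flox/flox mice they were 25.5, 18.8, 16.1 and 16.1 CPM, then 97.1, 77.6, 82.5 and 85.8 CPM, then 106.9, 100.4, 100.8 and 99.0 CPM. All proBpreB libraries lay below all later ones. The first step was 1.63 (SE 0.15, adjusted p = 3.51e-10) in flox/WT and 2.16 (SE 0.15, adjusted p = 1.12e-12) in flox/flox mice, and the second was 0.15 and 0.25, neither of them called. Bank1, an adaptor of B cell receptor signalling (r 0.978), Lgals3 (0.970) and the transcription factor Klf3 (0.968) were most like it.

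Hmox1, the inducible heme oxygenase, lies on chromosome 8 at 75093621 to 75100589 (plus strand). It measured 8.83, 7.40, 11.3 and 11.7 CPM in proBpreB, 19.4, 28.5, 46.7 and 36.3 CPM in immature and 30.5, 28.3, 46.9 and 38.7 CPM in mature flox/WT cells. The proBpreB libraries lay below all others, and the immature libraries were the most spread. It rose by 1.75 (SE 0.23, adjusted p = 3.71e-07) at the first step in flox/WT and by 2.12 (SE 0.24, adjusted p = 1.48e-08) in flox/flox mice, where it ranged from 5.68 to 9.66 CPM in proBpreB, 27.1 to 41.3 CPM in immature and 30.5 to 43.7 CPM in mature cells. The second step was 0.14 and 0.06, neither of them called.

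Macrophages of the marrow are rich in both Hmox1 and ferroportin, and their markers moved with these genes. The 13 macrophage markers, among them Csf1r, C1qa and Adgre1, summed to 40.2 to 64.3 CPM in proBpreB, 159 to 373 CPM in immature and 144 to 254 CPM in mature flox/WT libraries. In flox/flox libraries they summed to 33.9 to 54.5, 168 to 261 and 161 to 217 CPM. Of the 13, 12 were higher in immature than proBpreB cells of either genotype, and none was at 0 counts over any group. In immature flox/WT libraries 1 to 4 the sums were 159, 199, 373 and 258 CPM, the same order as Hmox1. The genes most like Hmox1 over the 24 libraries were Axl (r 0.975) and C1qa (0.959), both of that list, and Hpgd (0.955). The 11 neutrophil and monocyte markers rose too, from 4008 to 5960 CPM in proBpreB to 8026 to 9490 CPM in immature and 11353 to 17753 CPM in mature flox/WT libraries. The 13 erythroid markers summed to 1394 to 3257, 2458 to 8015 and 3798 to 10691 CPM in the same populations, with 6 of 13 called higher at the first step. The part of these cells in the rise of Hmox1, Slc40a1 and the ferritin chains was not tested.

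**Figure D2:**
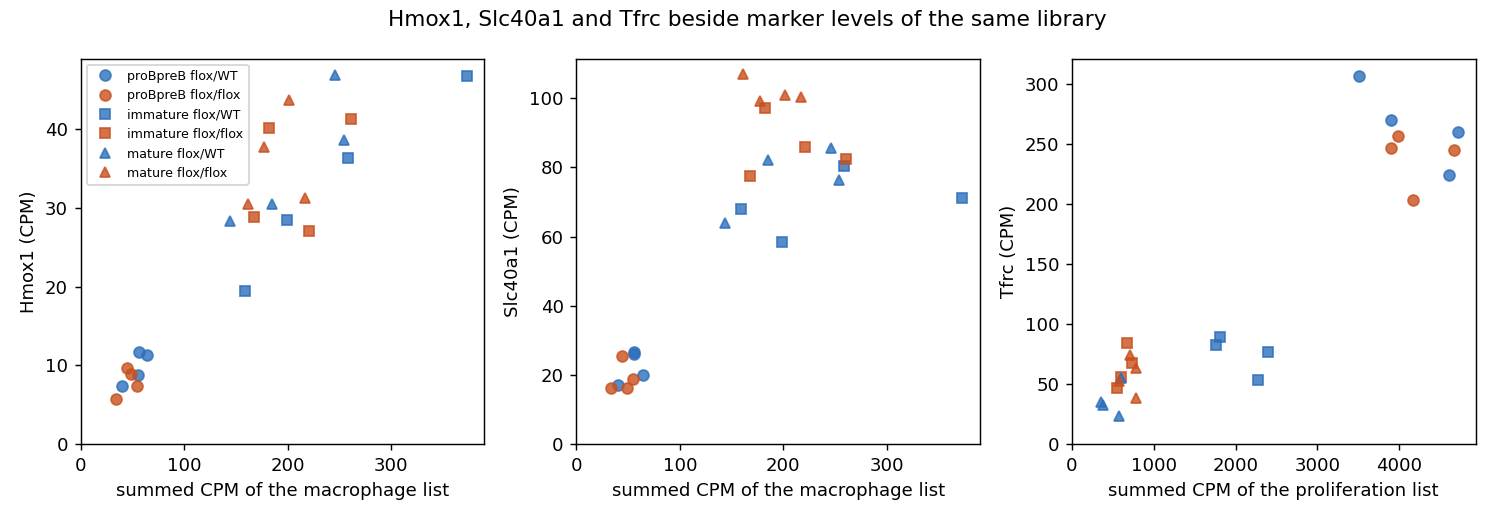
CPM of Hmox1, Slc40a1 and Tfrc (vertical axes) against the summed CPM of the macrophage or proliferation markers of the same library (horizontal axes); symbols are populations and colours genotypes. Libraries with macrophage sums of up to 64.3 CPM are all proBpreB and hold the lowest Hmox1 and Slc40a1, and the mature flox/flox libraries hold the highest Slc40a1 at sums of 161 to 217 CPM.

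Hmox2, the constitutive heme oxygenase, lies on chromosome 16 at 4726361 to 4766742 (plus strand) and overlaps Gm15859 and Cdip1. It stayed within 76.0 to 118 CPM in all 24 libraries. It was lower in mature than in proBpreB cells, by -0.32 (SE 0.11, adjusted p = 0.0147) in flox/WT and -0.33 (SE 0.11, adjusted p = 0.0121) in flox/flox mice. These small calls ended without proBpreB flox/WT replicate 1 (adjusted p = 0.0507), mature flox/WT replicate 1 (0.053) or proBpreB flox/flox replicate 1 (0.0535). From proBpreB to immature cells it measured -0.20 (adjusted p = 0.142) in flox/WT and -0.25 (adjusted p = 0.0558) in flox/flox mice, the latter called with the mouse as a block (adjusted p = 0.0354), RLE size factors (0.0311), DESeq2 (0.0232), only the groups compared (0.0298), and without proBpreB flox/flox replicate 3 (0.0355) or immature flox/flox replicate 1 (0.0153). Blnk (r 0.911), Brd7 (0.880) and Top1 (0.867) were most like it.

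Aco1 and Ireb2 encode the regulators that bind the hairpins printed above. Aco1, whose protein is a cytosolic aconitase when it carries an iron-sulfur cluster, lies on chromosome 4 at 40143081 to 40198338 (plus strand). It ranged from 21.7 to 26.5 CPM in proBpreB, 35.4 to 53.8 CPM in immature and 44.3 to 61.7 CPM in mature flox/WT libraries, and from 25.1 to 29.2, 35.3 to 42.2 and 35.9 to 45.9 CPM in flox/flox ones. It rose at the first step by 0.91 (SE 0.13, adjusted p = 1.89e-06) and 0.51 (SE 0.13, adjusted p = 0.00219) and measured 0.10 and 0.12 at the second, neither of them called. Nadk (r 0.938), Anxa6 (0.937) and Tpp1 (0.935) were most like it.

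Ireb2, whose protein is degraded when iron is plentiful, lies on chromosome 9 at 54863789 to 54912530 (plus strand). It ranged from 56.5 to 68.1 CPM in proBpreB, 45.7 to 65.0 CPM in immature and 44.5 to 60.7 CPM in mature flox/WT libraries. In flox/flox libraries it ranged from 61.4 to 77.3, 61.7 to 87.0 and 42.1 to 68.2 CPM. It fell from immature to mature cells of flox/flox mice by -0.44 (SE 0.14, adjusted p = 0.0225). This call ended with only the groups compared (adjusted p = 0.0576) and without immature flox/flox replicate 3 (0.0983) or 4 (0.0608) or mature flox/flox replicate 1 (0.0585) or 2 (0.0934). Between mature and proBpreB cells it measured -0.30 in both genotypes (adjusted p = 0.0691 in flox/WT and 0.0752 in flox/flox), called with the mouse as a block (0.0317 and 0.0281). In flox/WT mice it was also called with RLE size factors (0.0395), DESeq2 (0.0363), only the groups compared (0.0331), and without proBpreB flox/WT replicate 3 (0.0444) or mature flox/WT replicate 1 (0.0363). The flox/flox difference was also called without mature flox/flox replicate 3 (0.0138). Its closest genes, Slc30a4 (r 0.791), Uso1 (0.765) and Zcchc24 (0.749), followed it less closely than those of the other members.

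Between immature and mature cells few of the 9 genes moved further. In flox/WT mice 2 of 9 were called, Fth1 higher and Tfrc lower, beside 32.7% of all genes, 15.6% higher and 17.1% lower. In flox/flox mice 1 of 9 was called, Ireb2, which was lower, beside 26.5% of all genes and 13.6% lower. Over the whole span from proBpreB to mature cells 8 of 9 were called in each genotype, 5 higher and 3 lower, beside 58.8% of all genes in flox/WT (29.2% higher, 29.6% lower) and 59.1% in flox/flox mice (29.7% higher, 29.5% lower). Tfrc spanned -2.86 (SE 0.23, adjusted p = 4.65e-11) in flox/WT and -2.05 (SE 0.22, adjusted p = 1.26e-08) in flox/flox mice, and Fth1 1.25 (SE 0.11, adjusted p = 8.97e-11) and 1.06 (SE 0.11, adjusted p = 2.62e-09). Slc40a1 spanned 1.78 (SE 0.15, adjusted p = 2.63e-11) and 2.41 (SE 0.15, adjusted p = 8.05e-14). Tfrc and Slc11a2, which hold the 3′ sites, were the genes with the largest falls. Fth1, Ftl1 and Slc40a1, which hold the 5′ sites, rose, and Hmox1 and Aco1 rose without a site. Iron and the binding of the regulators were not measured here, and the part of the sites in these levels was not tested.

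**Figure D3:**
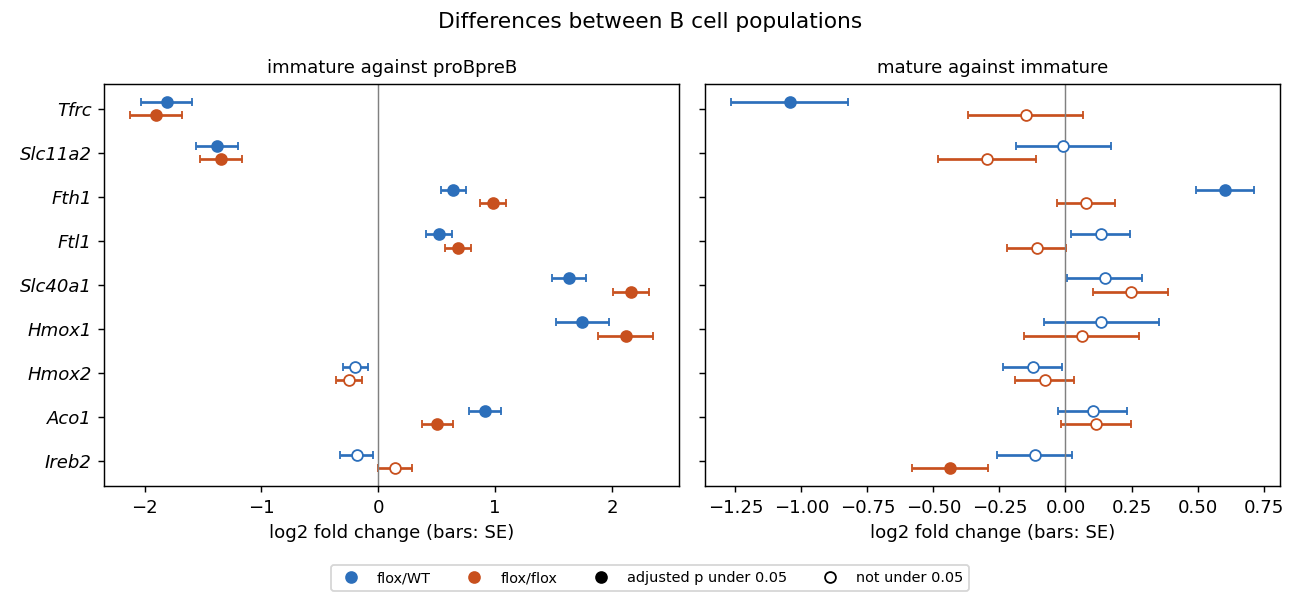
Log2 fold change of each gene (horizontal axes) from proBpreB to immature cells and from immature to mature cells, flox/WT in blue and flox/flox in orange, with bars for the SE; filled points have an adjusted p under 0.05. Most of the difference lies in the first step, and at the second step Tfrc and Fth1 are called in flox/WT mice and Ireb2 in flox/flox mice.

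Between genotypes, none of the 9 genes was called in proBpreB or immature cells, and 2 were called in mature cells. In proBpreB cells 0 of 9 were called, where 6.13% of all genes were. There 1 of 9 had an unadjusted p under 0.05 with edgeR, and DESeq2 called 0. In immature cells 0 of 9 were called, where 20.7% of all genes were. There 2 of 9 had an unadjusted p under 0.05 with edgeR, and DESeq2 called 0. In mature cells 2 of 9 were called, 1 in each direction, where 16.3% of all genes were, 9.69% higher and 6.62% lower. The members' share was thus below the background in proBpreB and immature cells. In mature cells it was slightly above, on a count of 2 genes, too few to set the members apart. The median log2 fold change of the 9 genes was -0.16, 0.03 and -0.10, against -0.002, 0.003 and 0.007 over all genes.

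Mature flox/flox cells held less Fth1 than mature flox/WT cells, 1924 ± 206 against 2690 ± 416 CPM (SD, n = 4 each). All 4 flox/flox libraries, 1726 to 2209 CPM, lay below the lowest flox/WT library, 2316 CPM. The log2 fold change was -0.48 (SE 0.11, edgeR adjusted p = 0.00239), and the call held in all 14 alternatives tried. Markers differed in the same libraries: the 6 B lineage markers summed to 6254 to 6866 CPM in flox/flox and 8209 to 9040 CPM in flox/WT libraries (3 of 6 called lower), and the 8 mature B markers to 9693 to 10779 and 12143 to 13355 CPM (1 of 8 called lower), both without overlap. The 13 erythroid markers summed to 7767 to 21146 and 3798 to 10691 CPM (2 of 13 called higher). The part of these differences in the lower Fth1 was not tested. In proBpreB cells Fth1 was also without overlap, 840 to 988 against 1055 to 1257 CPM, at -0.30 (95% interval -0.53 to -0.07, adjusted p = 0.113), beside B lineage sums of 2581 to 2738 and 3804 to 4572 CPM. In immature cells the libraries overlapped and the difference was 0.04 (-0.18 to 0.27). The light chain Ftl1 measured -0.14, 0.03 and -0.22 in the 3 populations, none of them called.

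Mature flox/flox cells held more Tfrc, 57.4 ± 15.2 against 36.7 ± 13.5 CPM (SD, n = 4 each), although the libraries overlapped. The log2 fold change was 0.65 (SE 0.22, edgeR adjusted p = 0.0456). This call rested on single libraries: it ended without mature flox/WT replicate 2 (adjusted p = 0.146), 3 (0.0997) or 4 (0.114) and without mature flox/flox replicate 1 (0.111), 3 (0.171) or 4 (0.0553). It also ended with no expression filter (0.0767) and with only the groups compared (0.115). Of the 12 proliferation markers 8 were higher in mature flox/flox cells, which summed to 574 to 783 against 352 to 595 CPM, and their part in the difference was not tested. Erythroid precursors are rich in the receptor as well, and the part of the erythroid markers, whose sums are given with Fth1, was not tested either. In immature cells all 12 proliferation markers were lower in flox/flox libraries, and Tfrc measured -0.25 (95% interval -0.70 to 0.21, adjusted p = 0.462). In proBpreB cells Tfrc measured -0.16 (-0.60 to 0.28).

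Slc40a1 in mature cells was 99.0 to 106.9 CPM in flox/flox and 63.8 to 85.5 CPM in flox/WT libraries, without overlap. The log2 fold change of 0.40 (SE 0.14, 95% interval 0.10 to 0.70) had an adjusted p of 0.0502, just outside the threshold. Its adjusted p was 0.0439 with RLE size factors, 0.0284 with DESeq2 and 0.0444 with only the groups compared. It was called in 5 of 14 alternatives, over which its adjusted p reached 0.154. In immature cells Slc40a1 measured 0.30 (0.00 to 0.60, adjusted p = 0.135) and in proBpreB cells -0.23 (-0.54 to 0.09). None of the 13 macrophage markers was called between genotypes in proBpreB or mature cells by edgeR or DESeq2 (1 and 0 at an unadjusted p under 0.05), and 1 was lower in immature flox/flox cells. The 13 erythroid markers summed to 1978 to 3695, 10220 to 18997 and 7767 to 21146 CPM in proBpreB, immature and mature flox/flox libraries. In flox/WT libraries they summed to 1394 to 3257, 2458 to 8015 and 3798 to 10691 CPM. The part of these markers in the Slc40a1 differences was not tested. Slc11a2 in mature cells measured -0.47 (-0.86 to -0.09, adjusted p = 0.0765), with flox/flox libraries at 21.6, 24.5, 12.8 and 14.4 CPM; without flox/flox replicate 2 it was called at -0.65 (adjusted p = 0.0168).

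Hmox1 was not called between genotypes in any population. It measured -0.31 (95% interval -0.81 to 0.20) in proBpreB, 0.06 (-0.40 to 0.52) in immature and -0.01 (-0.47 to 0.45) in mature cells. Its level moved with macrophage markers over the libraries, and their part in these values was not tested. Hmox2 measured -0.09, -0.14 and -0.10, and Aco1 0.14, -0.27 and -0.25, none of them called. Ireb2 measured 0.37 in immature cells (0.07 to 0.67, adjusted p = 0.0645), called at 0.44 without immature flox/flox replicate 2 (adjusted p = 0.0422), and 0.04 and 0.05 in proBpreB and mature cells.

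**Figure D4:**
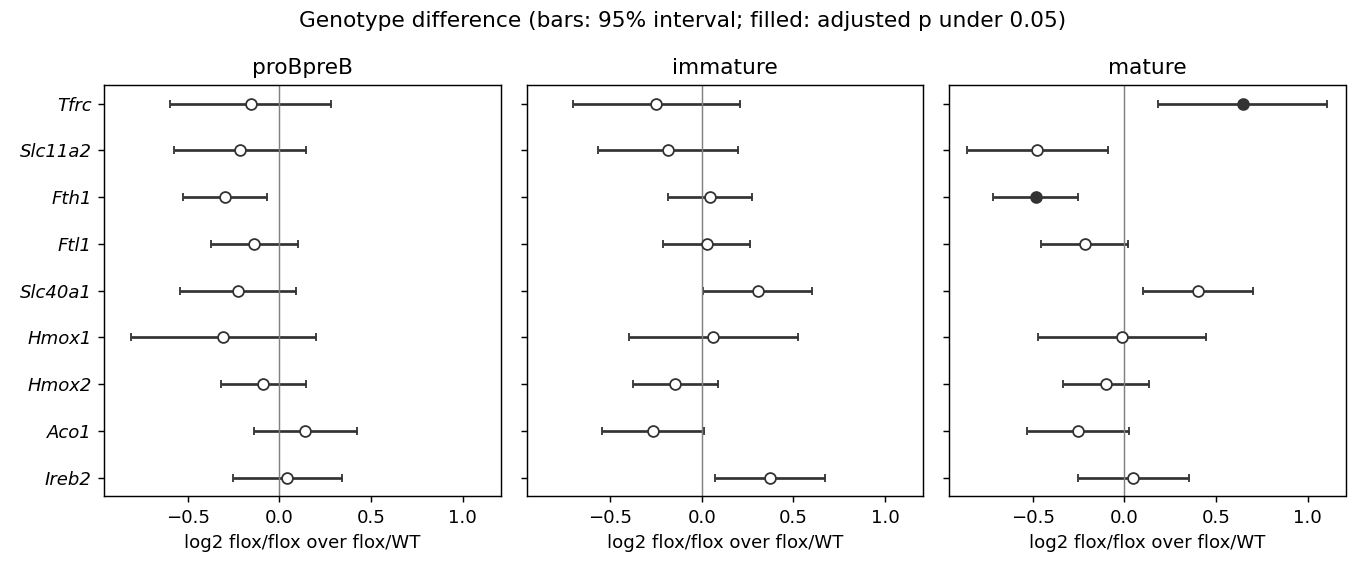
Log2 fold change of flox/flox over flox/WT (horizontal axes) for each gene in the 3 populations, with 95% intervals; filled points have an adjusted p under 0.05. Filled points are limited to Tfrc and Fth1 in mature cells, on opposite sides of 0.

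The genotype difference itself was compared between populations. From immature to mature cells it changed for 1 of 9 genes, Fth1, in a comparison that called 7.74% of all genes, 2.23% in the lower direction. Its genotype difference was lower in mature cells by -0.53 (SE 0.15, edgeR adjusted p = 0.0314), and the value ranged from -0.60 to -0.42 over 22 alternatives. That call ended with no expression filter (adjusted p = 0.06), without immature flox/WT replicate 2 (0.0557) or 3 (0.0771), immature flox/flox replicate 1 (0.0826) or 2 (0.0542), mature flox/WT replicate 2 (0.0857), or mature flox/flox replicate 1 (0.0507), 3 (0.0554) or 4 (0.0724). Tfrc moved the other way by 0.89 (SE 0.31, adjusted p = 0.0803). It was called with DESeq2 (adjusted p = 0.0357) and without immature flox/WT replicate 4 (0.0387), immature flox/flox replicate 3 (0.0355), mature flox/WT replicate 1 (0.00853) or mature flox/flox replicate 2 (0.0302).

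From proBpreB to immature cells the genotype difference changed for 0 of 9 genes beside 10.9% of all genes, with 3 of 9 at an unadjusted p under 0.05 (edgeR) and 0 called by DESeq2. From proBpreB to mature cells it changed for 0 of 9 beside 3.06%, again with 3 of 9 at an unadjusted p under 0.05 and 0 called by DESeq2. Slc40a1 had the smallest adjusted p of the 9 in both, at 0.53 (SE 0.21, adjusted p = 0.104) and 0.63 (SE 0.21, adjusted p = 0.101). With the mouse as a block these were called (adjusted p = 0.0353 and 0.0295), so that 1 of 9 genes was called in each. They were also called without proBpreB flox/WT replicate 2 (0.0425 and 0.0483) or proBpreB flox/flox replicate 1 (0.025 and 0.0244). For Tfrc the difference from proBpreB to mature cells was 0.80 (SE 0.30, adjusted p = 0.178), called without mature flox/WT replicate 1 (0.0288).

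HIF binds DNA at a core of ACGTG or GCGTG. Only ACGTG was searched, on both strands, in the 250 bases before the start of each RefSeq promoter entry (GRCm38.p6). An entry without ACGTG can therefore still hold a core. Of the 9 genes, 6 had an entry, 10 entries in all, and Hmox1, Slc40a1 and Slc11a2 were not searched. These starts can differ from the GENCODE gene starts printed above, and starts of Tfrc, Fth1, Hmox2 and Aco1 entries lie within the gene. For such entries part or all of the bases searched belong to the annotated gene. ACGTG was found in 1 entry, of Tfrc, on the gene's strand. It lay 228 bases before that entry's start and 26 bases before the GENCODE gene start, and it is shown as the only match of ACGTG. Capitals mark ACGTG.
Tfrc upstream, chr16:32608882-32608910, plus strand: ctcggtaggtgtACGTGcggaaggaagtg
ACGTG was found in 16.6% of 32851 promoters of that length, so a match is common. The antioxidant response element TGACNNNGC was found in 10.2% of promoters and in none of the 10 entries. These letters say nothing of whether a factor was bound in these cells.

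Other genes of iron and heme handling were described by lists whose genes were picked by function. In proBpreB cells 4 of 69 list entries tested (5.80%) differed between genotypes, beside 6.13% of all genes, and all but 1 were lower in flox/flox mice. No split by direction over all genes is given here. In the same libraries the B lineage markers summed to 2581 to 2738 CPM in flox/flox and 3804 to 4572 CPM in flox/WT mice, with 3 of 6 called lower, and of the 8 mature B markers 7 were called lower and 1 higher. Their part in the list differences was not tested. Blvrb, a biliverdin reductase, fell from 99.9 ± 21 to 39.1 ± 4.4 CPM (SD, n = 4 each; log2 -1.36, SE 0.14, edgeR adjusted p = 5.37e-08). The heme transport and breakdown list held no other call among 12 tested genes (median -0.03). Tmem14c, a mitochondrial porphyrin carrier, was the 1 call of 12 heme synthesis genes (-0.60, SE 0.11, adjusted p = 0.000366; median 0.12). Steap4, a metalloreductase that converts ferric iron, was the 1 call of 11 entry genes (-0.85, SE 0.19, adjusted p = 0.00492; median -0.03). Of 20 mitochondrial iron genes, the chaperone Hspa9 was the 1 call, at 0.51 (adjusted p = 0.0472; median of the list -0.11). Hspa9 was not called with no expression filter (adjusted p = 0.0505), with only the groups compared (0.118), or without proBpreB flox/WT replicate 3 (0.146) or 4 (0.236) or flox/flox replicate 1 (0.201), 3 (0.082) or 4 (0.0934). None of 6 chaperone and export genes (median -0.07) and none of 8 Nrf2 target genes (median 0.16) was called by edgeR or DESeq2, with 0 and 1 at an unadjusted p under 0.05.

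In immature cells 15 of 69 list entries (21.7%) differed, near the 20.7% of all genes, and 13 of them were higher in flox/flox mice. The split by direction over all genes is not given for this comparison, so that lean has no background beside it. Fbxl5, the ligase subunit that degrades the Ireb2 protein, rose from 245 ± 37 to 385 ± 59 CPM (log2 0.65, SE 0.13, edgeR adjusted p = 0.000374), and Ncoa4, the receptor that delivers ferritin to autophagy, from 204 ± 6.0 to 291 ± 19 CPM (0.51, SE 0.12, adjusted p = 0.00245). They were 2 of 6 in their list (median 0.23). The mitochondrial iron importer Slc25a37 rose from 22.7 ± 1.1 to 43.7 ± 6.2 CPM (0.94, SE 0.14, adjusted p = 1.17e-05) and Iba57 by 0.65 (adjusted p = 0.00906), while Cisd1 fell by 0.32 (adjusted p = 0.0277), 3 of 20 in that list (median -0.05). Heme synthesis had 3 of 12 higher (median 0.14), namely Alas2, the erythroid form of its first enzyme, by 1.58 (SE 0.40, adjusted p = 0.00602), Cpox by 0.51 (0.0125) and Fech by 0.47 (0.0216). The entry list had 3 of 11 higher (median 0.25), Ndfip1 by 0.51 (adjusted p = 0.00771), Lcn2, a siderophore carrier, by 0.73 (0.0132) and Steap4 by 0.63 (0.0284). Hp and Keap1 were the 2 of 12 called in heme transport and breakdown (0.49, adjusted p = 0.037, and 0.35, adjusted p = 0.0379; median 0.04). Of 8 Nrf2 target genes Gclc rose by 0.62 (adjusted p = 0.00175) and Txnrd1 fell by 0.56 (adjusted p = 0.00883; median 0.31).

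Several of these immature calls rested on single libraries, given here with the adjusted p without each. Without immature flox/WT replicate 1, Steap4 (0.0584) and Keap1 (0.0531) were not called. Without flox/WT replicate 2, Cpox (0.0547), Fech (0.0519), Hp (0.137) and Keap1 (0.0528) were not. Without flox/WT replicate 3, Steap4 (0.057), Fech (0.052), Hp (0.0702), Keap1 (0.128) and Cisd1 (0.0656) were not, and without replicate 4, Steap4 (0.0551), Hp (0.0904), Keap1 (0.0615) and Cisd1 (0.0518). Among flox/flox libraries, Lcn2 (0.0686) and Hp (0.141) rested on replicate 1, and Steap4 (0.0791) and Keap1 (0.124) on replicate 2. Steap4 (0.0583), Fech (0.054), Keap1 (0.0834) and Cisd1 (0.0567) rested on replicate 3, and Hp (0.0599) and Cisd1 (0.0734) on replicate 4. Erythroid markers moved in the same direction: 7 of 13 tested were higher in immature flox/flox cells, summed to 10220 to 18997 against 2458 to 8015 CPM, without overlap, and Alas2 is itself 1 of them. Neutrophils, which are rich in Lcn2 and Hp, also left their markers: those of neutrophils and monocytes summed to 11760 to 15762 against 8026 to 9490 CPM, with 3 of 11 higher. Stage markers differed as well: the 8 pro-B and pre-B markers summed to 974 to 1342 CPM in flox/flox and 402 to 596 CPM in flox/WT libraries (3 called higher, 1 lower), and the 8 mature B markers to 2351 to 2583 and 3516 to 3724 CPM (5 called lower). The part of all these markers in the list differences was not tested.

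In mature cells 7 of 69 list entries (10.1%) differed, 4 higher and 3 lower in flox/flox mice, beside 16.3% of all genes. Fbxl5 was again higher, 233 ± 33 against 148 ± 22 CPM (log2 0.65, SE 0.13, edgeR adjusted p = 0.000578), the 1 call of 6 in its list (median -0.05). Iscu, the scaffold on which iron-sulfur clusters are built, was lower, 45.8 ± 5.4 against 72.0 ± 11 CPM (-0.65, SE 0.11, adjusted p = 0.000122), the 1 call of 20 (median -0.03). Abcb10, a mitochondrial transporter, was lower by -0.58 (SE 0.16, adjusted p = 0.00942) and Cpox higher by 0.51 (adjusted p = 0.0165), 2 of 12 in heme synthesis (median 0.06). Slc7a11, the cystine importer, rose from 3.11 ± 1.4 to 12.8 ± 6.0 CPM (2.05, SE 0.49, adjusted p = 0.00423), the 1 call of 8 Nrf2 target genes (median 0.42). Tfr2, a second transferrin receptor, was higher by 1.38 at a low level, 4.83 ± 1.9 against 1.85 ± 0.45 CPM (adjusted p = 0.0233), the 1 of 11 in the entry list (median 0.14). Blvrb measured -0.44 (adjusted p = 0.0322), the 1 of 12 in heme transport and breakdown (median 0.13).

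Of these mature calls, Tfr2 ended without mature flox/WT replicate 2 (adjusted p = 0.0632) or 3 (0.0626) or flox/flox replicate 1 (0.0981). Cpox ended without flox/WT replicate 3 (0.0679) or 4 (0.0719) or flox/flox replicate 1 (0.0633) or 2 (0.0592). Blvrb ended without flox/WT replicate 2 (0.0559) or 3 (0.0963) or flox/flox replicate 1 (0.115) or 4 (0.0996). With only the groups compared, Cpox (0.0571) and Blvrb (0.0529) were not called. The erythroid marker sums of the mature libraries, given with Fth1, stand beside these differences too, and their part was not tested.

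Across populations the lists moved in both directions, as the members did. In flox/WT mice 29 of 69 list entries (42.0%) were called from proBpreB to immature cells, beside 49.4% of all genes, and 19 of 69 (27.5%) from immature to mature cells, beside 32.7%. In flox/flox mice the first step called 45 of 69 (65.2%), above the 55.9% of all genes. The second step there called 17 of 69 (24.6%), beside 26.5%. From proBpreB to immature cells of flox/WT mice, 7 of 11 entry genes were called, led by Steap4 (-2.27, SE 0.20, edgeR adjusted p = 3.05e-10) and Lrp1, a receptor of hemopexin-bound heme (2.70, SE 0.41, adjusted p = 3.89e-06), which also counts in the transport list. Of 6 chaperone and export genes Ncoa4 (0.64, adjusted p = 7.29e-05) and Herc2 (0.56, adjusted p = 0.00809) rose. In heme synthesis 3 of 12 rose and 2 fell, led by Ppox (-1.50, adjusted p = 2.41e-07) and Alad (0.75, adjusted p = 1.33e-05). In heme transport and breakdown 4 of 12 rose, among them the oxygenase's electron donor Por (0.71, adjusted p = 2.33e-05), and 1 fell. Of 20 mitochondrial genes 3 rose and 4 fell, led by Isca2 (-1.17, adjusted p = 5.09e-07) and Nfu1 (0.74, adjusted p = 3.63e-06). Of 8 Nrf2 target genes 2 rose, G6pdx by 1.04 (adjusted p = 2.67e-06), and Gclc, the catalytic subunit of glutathione synthesis, fell by 1.80 (adjusted p = 1.8e-11).

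From immature to mature cells of flox/WT mice Steap4 fell again, by 1.33 (SE 0.22, edgeR adjusted p = 2.8e-05), and Lrp1 fell by 1.56 (SE 0.39, adjusted p = 0.00266), with 2 of 11 entry genes higher and 2 lower. Fbxl5 fell by 0.73 (adjusted p = 5.58e-05), and Pcbp2, an iron chaperone, measured 0.36 (adjusted p = 0.0468). In heme synthesis Abcb10 (1.35, adjusted p = 1.08e-07) and Fech (0.58, adjusted p = 0.00254) rose, and 3 of 12 fell. Hp rose by 0.54 (adjusted p = 0.0139), with 2 of 12 higher and 1 lower in its list. Cisd1 fell by 0.74 (adjusted p = 2.25e-06) and Slc25a37 rose by 0.60 (adjusted p = 0.0015), with 2 of 20 higher and 3 lower. None of 8 Nrf2 target genes was called by edgeR or DESeq2, and 0 had an unadjusted p under 0.05. Pcbp2 was not called with no expression filter or with only the groups compared (adjusted p = 0.0682 in each), nor without immature flox/WT replicate 1 (0.0511), 2 (0.0726), 3 (0.116) or 4 (0.0934) or mature flox/WT replicate 1 (0.0664) or 2 (0.284). Hp was not called without immature flox/WT replicate 2 (0.0646) or mature flox/WT replicate 1 (0.0699).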

How the data were processed

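RNA was measured by sequencing of 24 libraries (6 groups of 4 mice) made with a SMARTer low-input kit, per the labels' protocols. The authors deposited raw counts per gene symbol; CASAVA, FastQC, Trim Galore, HISAT2, featureCounts, DESeq2 and the build mm10 are named in the submitters' processing notes, and the sources used here give no versions, strand use or annotation. The deposited table of normalised values was not used. Tests on the counts used edgeR 4.0.16 (R 4.3.3; TMM, filterByExpr, robust quasi-likelihood fit of all 24 libraries, 18 residual degrees of freedom), with Benjamini-Hochberg adjustment over 12850 genes within each of 12 comparisons at 0.05. Intervals are 95% of single values, and floors and intervals cover counting error or the spread between mice only. Reads carried no molecular identifiers in the sources used here.

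The 9 members and all lists were chosen with earlier results of these data known, and 1 gene first placed in a list is not reported here and was left out of that list's counts. Of each of 6 lists, up to 4 called genes with the smallest adjusted p were named per genotype comparison and up to 2 per stage comparison, the latter given for flox/WT mice at each of the single steps. Likeness is Pearson's r of log2 CPM (pseudocount 0.5) over 24 libraries among 9887 genes whose log2 CPM averaged 2 or more.

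Populations of 1 mouse are paired by animal, per the labels. The reported fit left this pairing out, and the mouse was a block only in an alternative. Deviations from group means correlated at -0.223 to 0.460 over the 24 same-mouse pairs (18 over 0.1; 5000 genes). In counts of libraries of 1 group, chi-square per degree of freedom was at least 5.98 over 36 pairs, so no library was taken for a repeat. Alternatives were RLE size factors, no expression filter, DESeq2 1.42.0, only the groups compared, a replicate block, each library left out and, added after seeing the data, the sex of the mouse. Sex was inferred from the summed counts of the Y-linked genes Ddx3y, Uty, Kdm5d and Eif2s3y. In each genotype 3 libraries were taken as male by these counts and 9 were not. In data simulated for the mature genotype comparison over 12850 genes, 85% of changes of log2 1 and 99% of log2 2 were recovered, with 0.0725% of unchanged genes called. The changed genes were drawn from well-counted genes, and the groups otherwise shared 1 mean per gene. Changes under log2 1, such as the members' genotype differences, were not simulated.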

Additional observations from a re-analysis of the deposited data

Results flagged for a closer look

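Among 54 combinations of member and group, 4 held a library that stood apart from the other 3, and chance flags about 1 in 20 groups. Fth1 in immature flox/WT replicate 3 was the lowest of its group, with a gap to the next library of 0.935 of the group's range. Ftl1 in proBpreB flox/WT replicate 4 was the highest, with a gap of 0.974 of the range. Hmox2 in mature flox/WT replicate 2 was the highest, with a gap of 0.863 of the range, and Aco1 in mature flox/WT replicate 1 the highest, with a gap of 0.893. The genotype difference of Fth1 differed between mature and immature cells by -0.527 on the log2 scale (edgeR adjusted p = 0.0314), with -0.60 to -0.42 over its 22 alternatives.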

How the results depend on the processing

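Of 108 member values over 12 comparisons, 36 were called, 31 of them under every alternative, and 11 others were called under at least 1 alternative. A sign change occurred for 21 values, none of them called in either direction. The mature genotype comparison called 2 members in the reported fit, 1 with no expression filter, 4 with the replicate block and 1 to 4 with single libraries left out; genotype replicates share only a number (same-number pairs correlated at -0.258 to 0.554, 5 of 12 over 0.1). With that block Slc40a1 had an adjusted p of 0.0219 and Slc11a2 of 0.0495, and with the sex of the mouse Slc40a1 of 0.0300. Leaving out 1 library gave 0 to 1 members in the immature genotype comparison, and Ftl1 was called in mature cells without flox/flox replicate 2 (-0.33, adjusted p = 0.0395). Mature against immature flox/flox cells gave 0 members with only the groups compared and 0 to 1 in leave-outs. The change of the genotype difference gave 1 member with the mouse block between immature or mature and proBpreB cells (0 to 1 in leave-outs of each), and between mature and immature cells 0 with no expression filter, 2 with DESeq2 and 0 to 2 in leave-outs. The block changed no other call of a member beyond those given with the results. Over all genes, calls between proBpreB genotypes fell from 788 to 493 without proBpreB flox/WT replicate 4, between mature genotypes from 2096 to 1296 with only the groups compared, and the mature-against-proBpreB change rose from 393 to 599 with DESeq2. The log2 difference of Vhl in leave-outs was -1.52 to -1.23 in proBpreB, -2.82 to -2.39 in immature and -2.02 to -1.75 in mature cells, each with an exact permutation p of 0.0571. Here p was the doubled smaller tail, and not the share of absolute differences used with all libraries. In that doubled form 0.0571 is the smallest value that 3 against 4 libraries can give. Low counts limit Tfr2 and Slc7a11. Causes of these changes were not tested.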
